A study of Homo sapiens with 4 samples.

Results

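DNA replication origin and fork genes encode the proteins that mark, license and fire replication origins and that copy DNA at the fork. The members were chosen by name, as the rows of the deposited expression table whose gene name was on a list of 48 replication genes, and all 48 were found among the 28412 genes of the table. RNA-seq was performed on 4 libraries of human cells that the labels call NB4, a promyelocytic leukemia cell line, to learn which transcripts change when the transcription co-regulator LDB1 is lost. The control shRNA vector sh-NC, in the lentiviral pLKO.1 backbone, was used for 2 libraries, and an LDB1 shRNA vector, sh-LDB1, for the other 2. Both groups went through lentiviral infection and puromycin selection, and the labels name no other treatment. The labels do not say which of the study's LDB1 shRNAs was sequenced, nor whether the replicates came from separate cultures, so the p-values below measure the spread between these libraries only, which may be technical.

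Replication starts at origins that the origin recognition complex (ORC) binds. With CDC6 and CDT1, ORC loads the ring-shaped MCM2-7 helicase in G1 phase, and geminin blocks reloading later in the cycle. The kinase CDC7 with its activator DBF4, and the factors CDC45, MCM10 and GINS, turn the loaded ring into the active CMG helicase (CDC45, MCM2-7 and GINS), after which primase and the DNA polymerases copy both strands behind it. Many of these genes are transcribed in a cell-cycle-dependent way under E2F factors, and dividing leukemia cells express them at high levels.

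Levels are given as FPKM, the fragments counted per kilobase of a gene after scaling for depth, and changes as log2 fold changes of FPKM + 1, sh-LDB1 minus sh-NC. A gene was said to fall or rise when limma's Benjamini-Hochberg adjusted p-value over all 13300 genes tested was below 0.05. LDB1 itself, the targeted gene, was at 135 and 120.1 FPKM under sh-NC and at 10.2 and 9.47 FPKM under sh-LDB1, which was 7.73% of control. The libraries corresponded to 15166714 to 17679340 recovered reads. The promyelocytic label was not matched by its markers, of which 8 of 10 were in the table. Their summed level was 22.4 to 23.2 FPKM under sh-NC and 73.1 to 75.8 FPKM under sh-LDB1, with ELANE at 0 in 3 of 4 libraries. SPI1 made up the largest part of the sum, at 10.5 and 10.7 FPKM under sh-NC and 34.3 and 35.3 FPKM under sh-LDB1. CSF3R, SPI1, LYZ, PRTN3 and AZU1 rose, while CD33 (0.32) and CEBPE (-0.58) did not pass the test. All 13 of 13 erythroid markers were in the table, with a summed level of 4103 to 4275 FPKM under sh-NC and 411 to 448 FPKM under sh-LDB1. Among them AHSP was at 0 in 1 sh-LDB1 library. The summed levels of both marker lists thus differed between the same groups as the results below. The part of the markers in those results was not tested. The paper gives a genotyping report in which NB4 cells matched the reference line exactly. That report does not say whether the sequenced cells were those genotyped.

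The promoters of 6 members are shown first, because they differ in the letters of the E2F site and belong to genes at both ends of the response. MCM3 and MCM6 are helicase subunits, CDC6 is the loading factor, RFC3 fell the most of all members, CDC45 fell the most among the activation factors, and ORC4 was one of the 2 members that did not pass the test. The windows run from 250 bases before to 50 bases after the RefSeq gene start on GRCh38.p14, 5′ to 3′ on the strand of the gene. Capitals mark matches to the E2F letters TTTCCCGC, TTTCGCGC, TTTGCCGC or TTTGGCGC on either strand. The windows are at chr2:135876394-135876693 (minus strand) for MCM6, chr6:52284693-52284992 (minus strand) for MCM3, chr17:40287629-40287928 (plus strand) for CDC6, chr13:33817899-33818198 (plus strand) for RFC3, chr22:19479670-19479969 (plus strand) for CDC45 and chr2:148021502-148021801 (minus strand) for ORC4.
MCM6: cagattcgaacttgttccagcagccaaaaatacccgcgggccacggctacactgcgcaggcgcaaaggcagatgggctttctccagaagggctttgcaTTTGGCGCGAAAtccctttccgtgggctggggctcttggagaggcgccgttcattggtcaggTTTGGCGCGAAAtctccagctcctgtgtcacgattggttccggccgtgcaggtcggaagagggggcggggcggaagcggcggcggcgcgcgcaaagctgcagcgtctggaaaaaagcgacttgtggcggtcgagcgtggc
MCM3: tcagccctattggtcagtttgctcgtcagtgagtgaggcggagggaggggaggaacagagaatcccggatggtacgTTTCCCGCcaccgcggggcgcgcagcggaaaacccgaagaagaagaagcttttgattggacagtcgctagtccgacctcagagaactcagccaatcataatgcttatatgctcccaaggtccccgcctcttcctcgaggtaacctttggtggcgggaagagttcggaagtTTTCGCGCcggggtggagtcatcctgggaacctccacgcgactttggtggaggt
CDC6: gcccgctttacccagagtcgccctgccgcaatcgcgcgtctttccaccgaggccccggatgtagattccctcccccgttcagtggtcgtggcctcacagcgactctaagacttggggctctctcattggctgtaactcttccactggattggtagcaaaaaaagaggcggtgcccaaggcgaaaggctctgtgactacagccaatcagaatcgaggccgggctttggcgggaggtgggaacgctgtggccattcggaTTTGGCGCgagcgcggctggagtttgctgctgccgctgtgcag
RFC3: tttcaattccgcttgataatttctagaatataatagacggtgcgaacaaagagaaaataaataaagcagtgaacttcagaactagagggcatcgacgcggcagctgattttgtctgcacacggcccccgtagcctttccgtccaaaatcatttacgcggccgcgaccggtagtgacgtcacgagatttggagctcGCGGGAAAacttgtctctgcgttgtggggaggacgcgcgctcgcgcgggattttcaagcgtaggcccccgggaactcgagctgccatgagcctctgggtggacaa
CDC45: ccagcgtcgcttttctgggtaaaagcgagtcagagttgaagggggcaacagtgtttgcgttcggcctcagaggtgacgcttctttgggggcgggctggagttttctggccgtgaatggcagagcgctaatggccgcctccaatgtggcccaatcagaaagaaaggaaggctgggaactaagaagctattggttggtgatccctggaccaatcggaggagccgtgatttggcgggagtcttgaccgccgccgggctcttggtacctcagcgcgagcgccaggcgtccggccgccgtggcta
ORC4: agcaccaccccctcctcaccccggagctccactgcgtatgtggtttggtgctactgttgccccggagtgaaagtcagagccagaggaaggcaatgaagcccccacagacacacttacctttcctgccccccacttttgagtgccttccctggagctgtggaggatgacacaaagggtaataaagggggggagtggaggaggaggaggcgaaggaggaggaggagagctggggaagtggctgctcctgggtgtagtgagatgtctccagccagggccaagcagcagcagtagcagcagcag
MCM6 held 2 stretches, each made of a match on either strand that overlap. MCM3 held 2 separate matches, and CDC6 and RFC3 held 1 each. CDC45 and ORC4 held none of these letters in the window. Other forms of an E2F site were not searched. The stretch tttggcgg in CDC45 and CDC6 differs from TTTGGCGC in its last letter and was not counted.

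Nearly all of these genes were lower after LDB1 knockdown. All 48 members passed the filter on low values, and 46 fell, 0 rose and 2 (ORC4 and RPA3) did not pass the test. The count of 0 was the same at an unadjusted p-value below 0.05 in limma and with limma voom on recovered reads. Over all genes tested, 37.4% fell and 29.9% rose. A fall of more than 2-fold on the scale of FPKM + 1 was met by 31 members, against 10.3% of all genes. By that much 9.5% of all genes rose. The study used the same fold with DESeq2, an unlike measure, and the added 1 FPKM makes the changes here smaller. In 47 members both sh-LDB1 libraries lay below both sh-NC libraries, and over all genes 46.3% did so. The median log2 fold change was -1.18 over the members and -0.08 over all genes tested. Rescaling the libraries to the same summed FPKM moved the median of all genes by 0.14, to 0.06, and with it the share of lower genes among all calls from 55.6% to 45.4%. Relative to the median of all genes, the members stood at -1.10 as deposited and at -1.07 after that rescaling. In bulk RNA, fewer cells in the replicating part of the cycle and less RNA per cell cannot be told apart.

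The summed level of the members was 2020.3 and 2057 FPKM under sh-NC and 839 and 849.7 FPKM under sh-LDB1. That was 0.633% and 0.644% of all FPKM under sh-NC, and 0.294% and 0.302% under sh-LDB1. The level of the middle member was 22.8 and 23.4 FPKM under sh-NC and 9.42 and 8.96 FPKM under sh-LDB1. Both sh-LDB1 libraries were below both sh-NC libraries in all 3 measures. By FPKM, PCNA was the most abundant member and GINS3 the least abundant in every library. By recovered reads, the highest value was that of MCM7 (13030) and the lowest that of TIPIN (106). Ranks, shares and ratios between genes, here and below, thus depend on the gene lengths behind the FPKM. Members of at least 10 FPKM numbered 41 in each sh-NC library, and 23 and 22 in the sh-LDB1 libraries. The order of the 48 levels was largely kept between the groups (Spearman's rho 0.91 across genes), and the size of the fall went little with the control level (r = -0.20, rho = -0.16 across the same 48 genes). These describe genes that share the same libraries, and genes are not independent replicates.

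**Figure D1:**
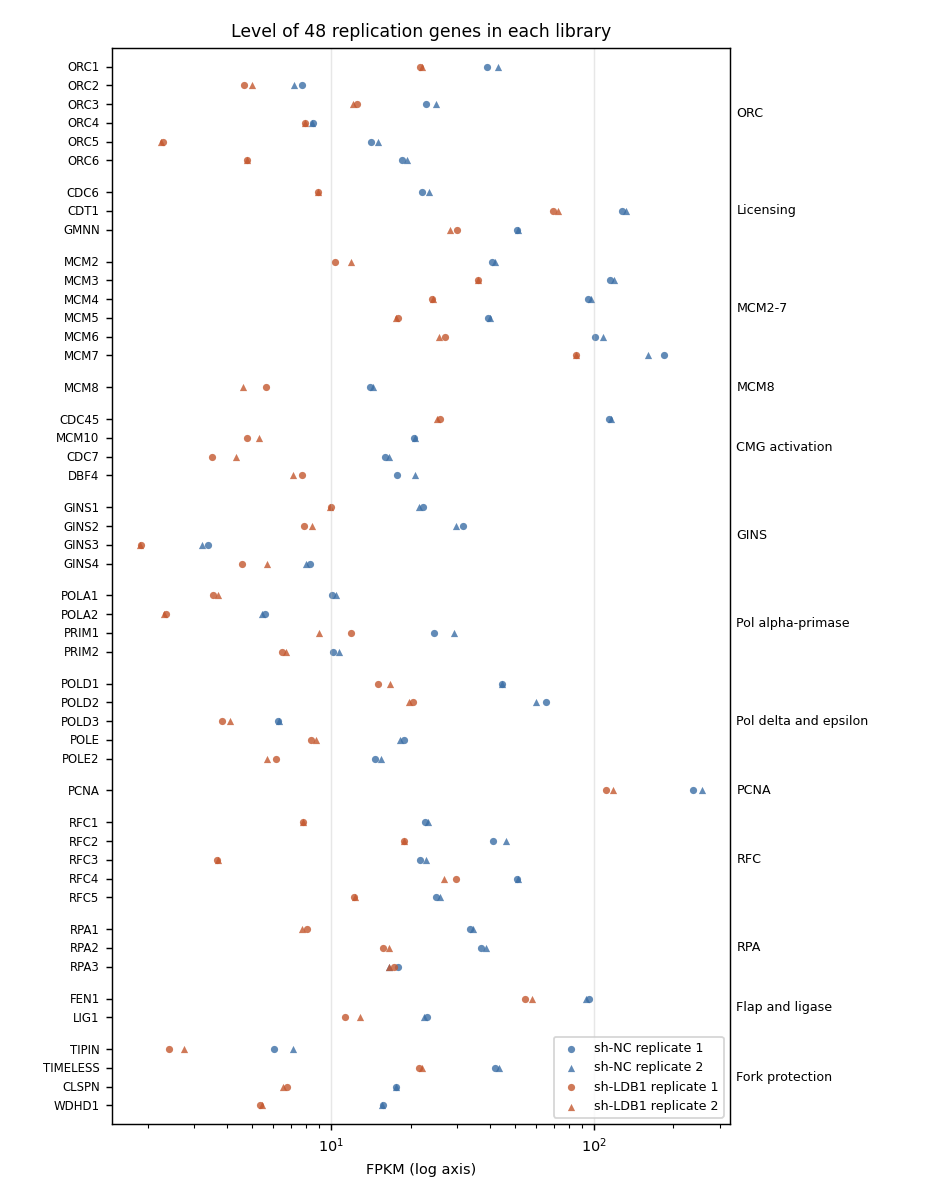
FPKM of each of the 48 replication genes (log axis) in the 4 libraries, grouped by complex, with sh-NC in blue and sh-LDB1 in orange. The orange points lie left of the blue points for 47 genes, and the points of RPA3 mix.

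ORC, the 6-subunit complex that binds origins, ranged from one of the largest falls to a gene that did not pass the test. Of its 6 genes, 5 fell, 2 of them more than 2-fold, and the median change was -0.89. ORC5 (chr7:104126341-104208047, minus strand, hg38) was at 14.2 and 15.04 FPKM under sh-NC and 2.28 and 2.25 FPKM under sh-LDB1, which left 15.5% of control. Its log2 fold change was -2.25 (SE 0.0608, adjusted p = 8.3e-05), the second in size of all members, and only 0.677% of the genes tested fell further. ORC6, the smallest subunit, was at 18.6 and 19.3 FPKM under sh-NC and 4.79 and 4.79 FPKM under sh-LDB1 and fell by 1.78 on the log2 scale. ORC1, the subunit that is cyclically lost and rebuilt in human cells, was at 39.2 and 42.98 FPKM under sh-NC and 21.7 and 22.1 FPKM under sh-LDB1. Its change was -0.88 (SE 0.0591, adjusted p = 0.000401), which left it at 53.3% of control. ORC3 fell to 51.4% and ORC2 to 64.4% of control.

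ORC4 (chr2:147930396-148021604, minus strand, hg38) was at 8.54 and 8.47 FPKM under sh-NC and 7.93 and 7.94 FPKM under sh-LDB1. The groups did not overlap, but the difference was small, with a log2 fold change of -0.09 (95% interval -0.22 to 0.04, adjusted p = 0.175), and the sign turned to 0.06 when libraries were rescaled to the same summed FPKM. ORC5 and ORC4 thus changed places in the order of levels. The ratio of ORC5 to ORC4 was 1.66 and 1.78 under sh-NC and 0.288 and 0.284 under sh-LDB1. As a share of the summed ORC level, ORC4 went from 7.68% and 7.18% to 14.7% and 14.6%, and ORC5 from 12.7% in both sh-NC libraries to 4.24% and 4.16%.

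The 3 licensing genes all fell, with a median of -0.86. CDC6, the ATPase that joins ORC to load the helicase, was at 22.1 and 23.4 FPKM under sh-NC and 8.87 and 8.92 FPKM under sh-LDB1. Its change was -1.26 (SE 0.0515, adjusted p = 0.000139), past 2-fold. CDT1, which brings the MCM ring to the origin, was at 128 and 132 FPKM under sh-NC and 69.9 and 72.9 FPKM under sh-LDB1, a change of -0.86 (SE 0.0449, adjusted p = 0.000217). GMNN, which encodes geminin, the inhibitor of CDT1, was at 50.9 and 51.4 FPKM under sh-NC and 30.02 and 28.2 FPKM under sh-LDB1, a change of -0.79 (SE 0.0481, adjusted p = 0.000308). The sh-LDB1 libraries were the lower in each of these genes, and neither CDT1 nor GMNN passed 2-fold. The ratio of CDT1 to GMNN was 2.51 and 2.57 under sh-NC and 2.33 and 2.58 under sh-LDB1, so the groups overlapped for this ratio.

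The 6 genes of the MCM2-7 helicase ring all fell more than 2-fold, with a median of -1.74. The 2-fold call of MCM7 and MCM5 depended on the scaling: with libraries rescaled to the same summed FPKM they were at -0.83 and -0.96, and 4 of the 6 passed. MCM6 was at 101 and 108 FPKM under sh-NC and 27.1 and 25.8 FPKM under sh-LDB1, 25.4% of control, and changed by -1.94 (SE 0.0554, adjusted p = 8.32e-05). MCM4 was at 94.8 and 96.9 FPKM under sh-NC and 24.2 and 24.4 FPKM under sh-LDB1 and changed by -1.94 (SE 0.0392, adjusted p = 6.77e-05). MCM2 was at 40.7 and 41.8 FPKM under sh-NC and 10.3 and 11.8 FPKM under sh-LDB1 and changed by -1.81 (SE 0.0746, adjusted p = 0.000141). These 3 subunits fell to 25.3% to 26.8% of control, and their groups were far apart. MCM3 was at 115 and 118 FPKM under sh-NC and 36.2 and 35.99 FPKM under sh-LDB1, with a change of -1.67 (SE 0.0396, adjusted p = 7.35e-05). MCM5 was at 39.5 and 40.2 FPKM under sh-NC and 17.8 and 17.6 FPKM under sh-LDB1, with a change of -1.13 (SE 0.0413, adjusted p = 0.000117). MCM7, the most abundant subunit, was at 184 and 161 FPKM under sh-NC and 85.4 and 84.9 FPKM under sh-LDB1, with a change of -1.003 (SE 0.0743, adjusted p = 0.000513). It lay just past the 2-fold line and fell short of it at -0.90 under the median-of-ratios rescaling and at -0.91 without sh-NC replicate 1. Its sh-NC libraries differed more from each other than its sh-LDB1 libraries did.

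The ring subunits are assembled in equal number, but their transcripts did not fall equally. MCM7 made up 32.0% and 28.4% of the summed MCM2-7 level under sh-NC and 42.5% and 42.4% under sh-LDB1. The ratio of the most to the least abundant subunit went from 4.64 and 3.99 to 8.28 and 7.18. MCM8, a related helicase outside the ring that acts in recombination, was at 13.96 and 14.4 FPKM under sh-NC and 5.62 and 4.61 FPKM under sh-LDB1 and changed by -1.32 (SE 0.0946, adjusted p = 0.000474).

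The 4 genes that turn the loaded ring into a moving helicase, apart from GINS, fell more than 2-fold, with a median of -1.83. CDC45, the helicase cofactor, was at 113 and 115 FPKM under sh-NC and 25.8 and 25.3 FPKM under sh-LDB1, 22.4% of control. It changed by -2.12 (SE 0.0394, adjusted p = 6.77e-05), the third in size of all members. The sh-LDB1 libraries were lower for each of the other 3 genes too. MCM10, which is needed to start unwinding, was at 20.6 and 20.8 FPKM under sh-NC and 4.80 and 5.30 FPKM under sh-LDB1 and fell by 1.85. CDC7, the kinase that phosphorylates the MCM ring, was at 15.98 and 16.5 FPKM under sh-NC and 3.53 and 4.35 FPKM under sh-LDB1 and fell by 1.81. Its activator DBF4 was at 17.7 and 20.8 FPKM under sh-NC and 7.75 and 7.15 FPKM under sh-LDB1 and changed by -1.26 (SE 0.0943, adjusted p = 0.00053). The ratio of CDC7 to DBF4 was 0.903 and 0.792 under sh-NC and 0.455 and 0.608 under sh-LDB1, without overlap.

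GINS is the 4-subunit part of the CMG helicase. All 4 genes fell, 2 of them past 2-fold, with a median of -0.83. GINS2 was at 31.7 and 29.8 FPKM under sh-NC and 7.88 and 8.40 FPKM under sh-LDB1 and changed by -1.80 (SE 0.0589, adjusted p = 0.000104). GINS1 fell to 45.1% of control. GINS3, the least abundant member, was at 3.39 and 3.21 FPKM under sh-NC and 1.88 and 1.88 FPKM under sh-LDB1 and changed by -0.58 (SE 0.0827, adjusted p = 0.00372). GINS4 fell to 62.9% of control, with the largest adjusted p of the genes that fell, 0.00804. GINS2 made up 48.2% and 47.6% of the GINS level under sh-NC and 32.4% and 32.5% under sh-LDB1. The gap between the most and the least abundant GINS subunit narrowed, from ratios of 9.35 and 9.27 to 5.30 and 5.25, where that of the MCM ring widened.

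**Figure D2:**
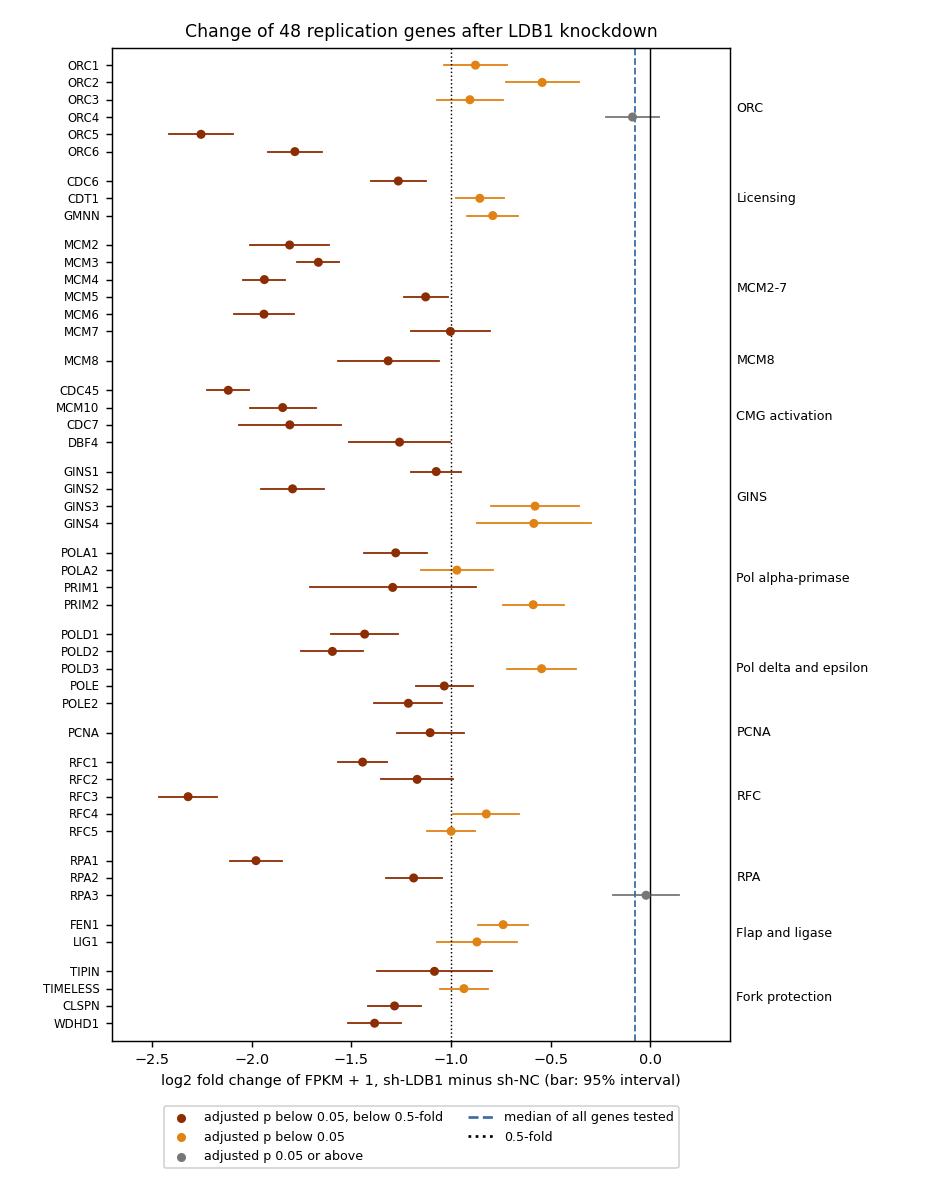
Log2 fold change of FPKM + 1 (sh-LDB1 minus sh-NC) of the 48 genes by complex, with 95% intervals from limma. Genes that fell past 2-fold are dark red, other genes that fell are orange and the 2 that did not pass the test are grey, and the dashed line is the median of all genes tested at -0.08.

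DNA polymerase alpha and its primase lay down the RNA-DNA primers. Its 4 genes fell, 2 of them past 2-fold, with a median of -1.12. PRIM1, the catalytic primase subunit, was at 24.5 and 29.4 FPKM under sh-NC and 11.9 and 9.003 FPKM under sh-LDB1. It changed by -1.29 (SE 0.156, adjusted p = 0.00216), with the largest standard error of the members, and its replicates differed within both groups without overlap between them. POLA1, the polymerase subunit, fell to 35.5% of control and POLA2 to 42.1%. With 1 FPKM added, POLA2 changed by -0.97 on the log2 scale, short of the 2-fold line. PRIM2, the large primase subunit, was at 10.2 and 10.7 FPKM under sh-NC and 6.49 and 6.74 FPKM under sh-LDB1 and changed by -0.59 (SE 0.0572, adjusted p = 0.00112). The ratio of PRIM1 to PRIM2 was 2.41 and 2.74 under sh-NC and 1.83 and 1.34 under sh-LDB1.

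Polymerases delta and epsilon extend the primers on the lagging and the leading strand. All 5 of their member genes fell, 4 of them past 2-fold, with a median of -1.21. POLD2, an accessory subunit of polymerase delta, was at 65.3 and 59.96 FPKM under sh-NC and 20.4 and 19.7 FPKM under sh-LDB1 and changed by -1.60 (SE 0.0583, adjusted p = 0.000117). POLD1, its catalytic subunit, fell to 35.6% of control. POLD3 was at 6.25 and 6.32 FPKM under sh-NC and 3.85 and 4.13 FPKM under sh-LDB1 and changed by -0.55 (SE 0.064, adjusted p = 0.00197), the smallest fall of this group. POLE, the catalytic subunit of polymerase epsilon, fell to 46.1% and POLE2 to 39.3% of control. The small accessory subunits of both enzymes belong to the wider replication list described below, and they did not share a direction.

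PCNA, the sliding clamp that holds the polymerases on DNA, was at 237 and 257 FPKM under sh-NC and 110.4 and 118 FPKM under sh-LDB1. It changed by -1.11 (SE 0.0628, adjusted p = 0.00026) and stayed the most abundant member. Replication factor C (RFC) loads this clamp, and its 5 genes fell, 3 of them past 2-fold, with a median of -1.17. RFC3 (chr13:33818069-33966558, plus strand, hg38) was at 21.8 and 22.98 FPKM under sh-NC and 3.67 and 3.70 FPKM under sh-LDB1, 16.5% of control. It changed by -2.32 (SE 0.0538, adjusted p = 7.21e-05), the largest fall of all members, with rank 80 among the 13300 genes tested. RFC4 was at 50.8 and 51.1 FPKM under sh-NC and 29.9 and 26.9 FPKM under sh-LDB1 and changed by -0.82 (SE 0.0622, adjusted p = 0.000541), the smallest fall of the complex. RFC1, the large subunit, fell to 34% of control and RFC2 to 43.1%. RFC5 was at 25.1 and 25.8 FPKM under sh-NC and 12.2 and 12.2 FPKM under sh-LDB1, 48% of control by its FPKM but -0.9998 on the log2 scale with 1 FPKM added, just short of the 2-fold line that MCM7 had just passed.

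RFC subunits were at like levels under sh-NC and were not under sh-LDB1. The ratio of the most to the least abundant subunit was 2.33 and 2.22 under sh-NC and 8.14 and 7.27 under sh-LDB1. RFC4 was the highest and RFC3 the lowest in all 4 libraries. RFC3 made up 13.5% and 13.6% of the RFC level under sh-NC and 5.07% and 5.32% under sh-LDB1.

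Replication protein A (RPA) is the 3-subunit coat of single-stranded DNA. Of its 3 genes, 2 fell past 2-fold and 1 did not pass the test. RPA1, the large DNA-binding subunit, was at 33.6 and 34.6 FPKM under sh-NC and 8.08 and 7.74 FPKM under sh-LDB1 and changed by -1.98 (SE 0.0486, adjusted p = 7.46e-05). RPA2 was at 37.1 and 38.9 FPKM under sh-NC and 15.7 and 16.6 FPKM under sh-LDB1 and changed by -1.19 (SE 0.0525, adjusted p = 0.000156). RPA3 (chr7:7636518-7718607, minus strand, hg38), the small subunit, was at 17.97 and 16.5 FPKM under sh-NC and 17.4 and 16.5 FPKM under sh-LDB1. The groups overlapped for RPA3 and for no other member. Its log2 fold change was -0.02 (95% interval -0.19 to 0.14, adjusted p = 0.778), and the sign turned to 0.14 and 0.07 under the 2 rescalings of the libraries. The ratio of RPA3 to RPA1 was 0.534 and 0.476 under sh-NC and 2.15 and 2.14 under sh-LDB1. RPA3 made up 20.3% and 18.3% of the RPA level under sh-NC and 42.2% and 40.5% under sh-LDB1, and RPA1 went from 37.9% and 38.5% to 19.7% and 18.9%.

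**Figure D3:**
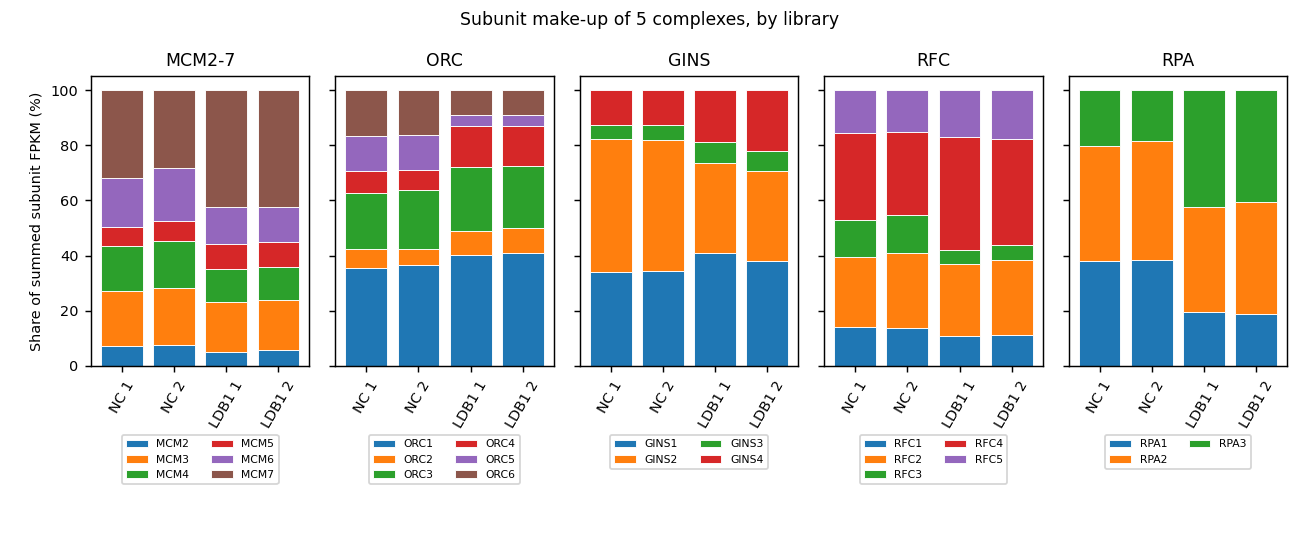
Share of each subunit in the summed FPKM of its complex (percent, stacked bars) for MCM2-7, ORC, GINS, RFC and RPA, 1 bar per library. The share of RPA3 went from 20.3% and 18.3% under sh-NC to 42.2% and 40.5% under sh-LDB1, and MCM7 and ORC4 also took larger shares.

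FEN1 and LIG1 finish the lagging strand by trimming flaps and sealing nicks. Both fell and neither passed 2-fold. FEN1 was at 95.4 and 93.2 FPKM under sh-NC and 54.5 and 57.7 FPKM under sh-LDB1 and changed by -0.74 (SE 0.0471, adjusted p = 0.00035). LIG1 was at 23.2 and 22.5 FPKM under sh-NC and 11.2 and 12.9 FPKM under sh-LDB1 and changed by -0.87 (SE 0.0757, adjusted p = 0.000809). For each, both sh-LDB1 libraries lay below both controls.

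The 4 fork protection genes fell, 3 of them past 2-fold, with a median of -1.18. WDHD1, which ties polymerase alpha to the helicase, was at 15.8 and 15.5 FPKM under sh-NC and 5.34 and 5.42 FPKM under sh-LDB1 and changed by -1.38 (SE 0.0492, adjusted p = 0.000115). CLSPN, the checkpoint adaptor claspin, was at 17.5 and 17.7 FPKM under sh-NC and 6.76 and 6.52 FPKM under sh-LDB1 and changed by -1.28 (SE 0.049, adjusted p = 0.000123). For both genes the replicates lay close together and the groups far apart. TIMELESS was at 41.9 and 43.4 FPKM under sh-NC and 21.5 and 22.1 FPKM under sh-LDB1 and changed by -0.94 (SE 0.0444, adjusted p = 0.000178). Its partner TIPIN fell to 39.1% of control, and the ratio of TIMELESS to TIPIN was 6.95 and 6.06 under sh-NC and 8.97 and 8.02 under sh-LDB1.

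Across the complexes, the fall was smaller than 2-fold at the median for ORC, licensing, GINS and the flap and ligase genes. It was larger for the MCM ring, the activation factors, the polymerases, RFC, RPA and the fork protection genes. The median of polymerase alpha and primase was -0.98 with libraries rescaled to the same summed FPKM, short of the line, and those of RFC (-1.004) and RPA (-1.02) then lay close to it. With GINS3 left out by the filter at a mean of 5 FPKM, the GINS median was past the line at -1.07. These medians rest on 2 to 6 genes each, and their differences were not tested. By FPKM, 13 members were under 33.3% of control, 20 were between this and 50%, and 15 were at or above 50%.

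The wider replication machinery was followed with a list of 54 other genes. Of these, 53 were tested and RNASEH2A was below the filter. Falls were called for 45 and rises for 3, and 5 did not pass the test (MCM9, HUS1, ATR, LRWD1 and POLE3). Over all genes tested 37.4% fell and 29.9% rose. More than 2-fold falls numbered 18, against 10.3% of all genes, and the median was -0.74 for the list and -0.08 for all genes. The counts were 43 lower and 4 higher when libraries were rescaled to the same summed FPKM. CHAF1B, a subunit of the CAF-1 histone chaperone that builds nucleosomes behind the fork, was at 11.95 and 11.6 FPKM under sh-NC and 1.68 and 1.37 FPKM under sh-LDB1 and changed by -2.34 (SE 0.0858, adjusted p = 0.000117). CHAF1B showed the largest fall of the list. Its partner CHAF1A was at 39.9 and 38.03 FPKM under sh-NC and 9.02 and 8.39 FPKM under sh-LDB1 and changed by -2.04 (SE 0.0568, adjusted p = 8.31e-05). TOP2A, the topoisomerase that untangles replicated DNA, was at 112 and 116 FPKM under sh-NC and 24.8 and 24.9 FPKM under sh-LDB1 and changed by -2.15 (SE 0.0402, adjusted p = 6.77e-05). All 3 were far below control in both sh-LDB1 libraries.

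The accessory subunits of the polymerases went in different directions. POLE4, of polymerase epsilon, was at 26.7 and 24.1 FPKM under sh-NC and 5.57 and 5.44 FPKM under sh-LDB1 and changed by -2.02 (SE 0.066, adjusted p = 0.000103). POLE3, its histone-fold partner, was at 44.9 and 44.1 FPKM under sh-NC and 45.4 and 47.9 FPKM under sh-LDB1, with a log2 fold change of 0.07 (adjusted p = 0.251), and it passed the test upward at 0.24 and 0.17 under the 2 rescalings. POLD4, the small subunit of polymerase delta, rose. It was at 3.49 and 3.22 FPKM under sh-NC and 10.7 and 10.6 FPKM under sh-LDB1, a change of 1.42 (SE 0.0617, adjusted p = 0.000152). It was the single gene of the list that rose more than 2-fold, where POLD1, POLD2 and POLD3 fell. CUL4B, a ubiquitin ligase scaffold, was at 14.9 and 15.7 FPKM under sh-NC and 19.8 and 19.97 FPKM under sh-LDB1 and changed by 0.36 (SE 0.0486, adjusted p = 0.00317). CHTF8, of an alternative clamp loader, was at 33.6 and 32.1 FPKM under sh-NC and 38.6 and 38.03 FPKM under sh-LDB1 and changed by 0.22 (SE 0.0449, adjusted p = 0.0122).

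Many replication genes start close to a gene on the other strand. For 15 members such a protein-coding neighbour, starting between 250 bases inside and 1000 bases upstream of the member's start, was among the genes tested. Of the 15, 5 fell, 6 rose and 4 did not pass the test, and their median was -0.01. Both counts lay near the shares over all genes tested, 37.4% lower and 29.9% higher, so nothing is read from the neighbours as a group. The median of their 15 members was -1.11. The counts were the same under both rescalings. The starts used for this pairing are the outermost GENCODE gene starts, which can differ from the RefSeq starts of the promoter windows. For GINS1, the window at chr20:25407423-25407722 lies downstream of the GENCODE start at 25391008, from which its neighbour was found. The neighbour that fell most was PRKDC, the DNA-PK catalytic subunit gene, whose start lies 7 bases from that of MCM4. It was at 64.9 and 69.7 FPKM under sh-NC and 19.7 and 19.0 FPKM under sh-LDB1, and its log2 fold change of -1.75 stood beside -1.94 for MCM4. PXMP2 beside POLE changed by -1.01, UFD1 beside CDC45 by -0.82, CDS2 beside PCNA by -0.76 and SLC25A40 beside DBF4 by -0.71, all past the test. In the other direction, ZSWIM9 beside LIG1 changed by 0.68, MAP2K1 beside TIPIN by 0.52, TMEM258 beside FEN1 by 0.51, VPS35 beside ORC6 by 0.45, TPRA1 beside MCM2 by 0.28 and PRPF38A beside ORC1 by 0.27. DBF4 and SLC25A40 share 145 bases of exon on opposite strands, so their reads cannot be told apart there unless strand was used.

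**Figure D4:**
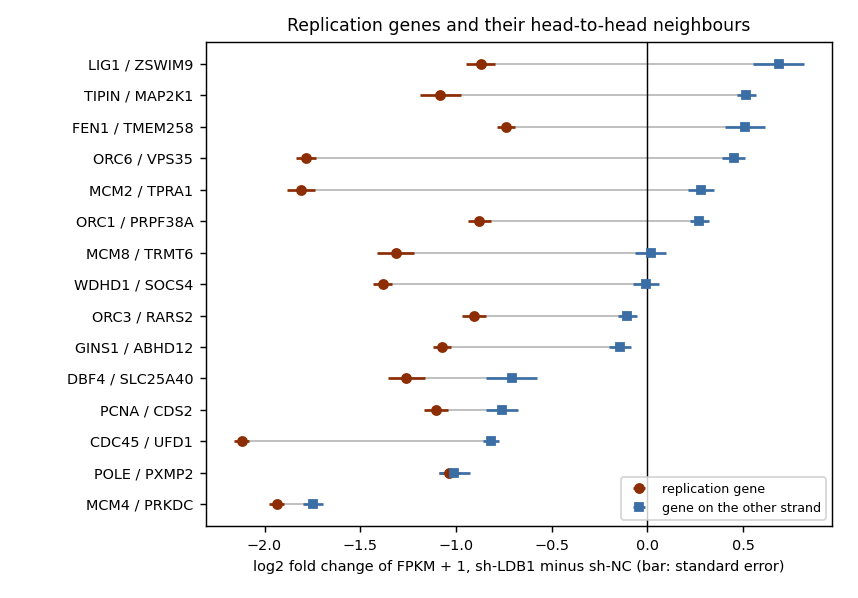
Log2 fold change of FPKM + 1 with standard errors for 15 replication genes (circles) and the tested gene starting on the other strand beside each (squares), sorted by the neighbour. All circles lie below -0.7, and the squares run from -1.75 for PRKDC to 0.68 for ZSWIM9.

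The promoters were searched for the letters of factors known at cell-cycle and erythroid genes. Of the 48 members, 42 were matched by symbol in the RefSeq table, and MCM4, MCM5, GINS4, POLD3, RPA2 and RPA3 were not. Of the 13300 genes tested, 8399 were matched, and the promoter shares of genes tested refer to these. The E2F letters printed above were found in 19 of 42, or 45.2%, against 5.71% of the 8399 promoters of genes tested and 3.33% of all 27305 promoters. All 4 matched MCM2-7 genes and all 3 matched GINS genes held them, but 0 of the 4 activation factors and 1 of the 6 ORC genes did. In 16 members a match lay between 60 bases before and 30 bases after the start. The 19 members that held them had a median log2 fold change of -1.21, and the 23 that did not had -1.26. This difference was not tested. Only the printed letters were counted, so members without them may hold other forms of an E2F site.

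Of the other letters, searched on both strands, CCAAT was in 57.1% of member promoters and 37.3% of those of genes tested. The E-box CACGTG was in 16.7% against 10.7%, and the GC box GGGCGG in 73.8% against 71.5%. The cell-cycle letters TTTGAA were in 1 member, DBF4, or 2.38% against 9.41%. The GATA letters AGATAA were in 0 of 42 against 4.66%. The median GC content of the windows was 65.3% in the members and 65.3% in the genes tested. These counts describe letters in short windows, not binding.

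**Figure D5:**
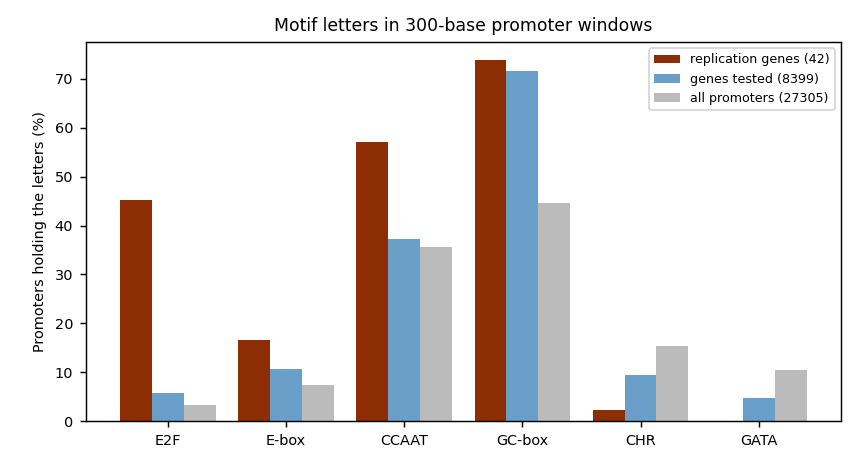
Percent of 300-base promoter windows that hold the letters of each motif. Shown are 42 replication genes, the 8399 genes tested that were matched by symbol, and 27305 promoters in all. The E2F bar stands at 45.2% for the replication genes and at 5.71% for the genes tested.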

How the data were processed

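RNA-seq was performed on total RNA with Illumina TruSeq libraries. Filtered reads were mapped by the authors with HISAT (HISAT2 2.0.5 on hg38 in the submitters' processing notes). The authors deposited 1 FPKM value per gene and library. The gene annotation, counting tool and use of strand are not given in the sources used here. The 48 members, the 54 further replication genes and the marker lists were chosen with earlier results of these data known. Groups came from the sample labels.

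Genes whose mean level reached 1 FPKM (13300 of 28412) were tested as log2(FPKM + 1) with limma 3.58.1 in R 4.3.3 (eBayes with a trend, two-sided, no block), with Benjamini-Hochberg adjustment over all genes tested. The added 1 FPKM shrinks the fold changes of genes at low levels. Fits were tested on simulated data. Levels, shares and ratios were computed in Python 3.11.15 with pandas 2.3.3. Each member is named, and values per library are given for the largest and smallest change of each complex, MCM2 to MCM7, ORC1, CDC6, CDT1, GMNN, CDC45, PCNA and CLSPN. Of the 54 genes, the 4 largest falls and the rises (at most 4) are named with library values. The other genes with library values (MCM10, CDC7, RPA2, ORC6, RFC5, PRKDC and POLE3) were chosen after their values were seen.

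Whole reads were recovered from the FPKM with gene lengths fitted from GENCODE release 44 exon lengths, and 98.8% of values came out whole within 0.005 reads. They held 106 (TIPIN) to 13030 (MCM7) reads per member and library. Their totals depend on those lengths. The median of ratios over genes above 0 gave the same factor, 0.992, in each library, so the deposited FPKM were already scaled that way. Exons of 10 members overlap another gene of at least 1 FPKM, by at most 7.90% of the member's exon length (MCM7). Promoter windows came from RefSeq. The alternatives were another pseudocount, other filters and scalings, a replicate block, other limma fits and leaving out each library.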

Additional observations from a re-analysis of the deposited data

How the results depend on the processing

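The fall of 46 members and the 0 rises held in each setting that kept all 48 genes, and 43 of the 45 genes left by a filter at a mean of 5 FPKM fell. These 46 genes kept their direction and their side of the threshold in every setting that tested them, and that filter left out GINS3, POLA2 and TIPIN. The median log2 fold change of the members moved from -1.18 to -1.28 with a pseudocount of 0.1 FPKM, to -1.01 with libraries rescaled to the same summed FPKM, to -1.08 with the median of ratios over the genes tested and to -1.29 with limma voom on recovered reads. Leaving out 1 library gave -1.24 to -1.13. The count past 2-fold was 31 (10.3% of all genes). It was 33 with a pseudocount of 0.1 FPKM (14.1% of all genes) and 33 with limma voom (14.5%). POLA2 and RFC5 gained the call in both. It was 28 under the median of ratios (8.61%) and 25 under the summed FPKM scaling (7.53%). With limma's treat test against a 2-fold change, which asks for more than the fitted fold, it was 19 (4.37%). MCM5, MCM7, GINS1, POLE, PCNA and TIPIN lost the 2-fold call under the summed FPKM scaling, MCM7, GINS1 and POLE under the median of ratios, MCM7 without sh-NC replicate 1 or sh-LDB1 replicate 2, and TIPIN without sh-NC replicate 2. The 2 genes that did not pass the test changed sign. ORC4 was at 0.0643 under the summed FPKM scaling. RPA3 was at 0.142 and 0.0734 under the 2 rescalings, and between -0.0801 and 0.0371 with 1 library left out. Under the median-of-ratios scaling 49.6% of all calls were lower. The replicate block gave 46 lower members, 31 past 2-fold and a median of -1.18, and changed no call. Deviations of same-numbered libraries from their group means correlated at 0.02 over the genes tested. Each group holds 2 libraries, so both pairs give this same value. It cannot show whether same-numbered libraries shared a culture or a run. With 2 libraries a group, no library could be judged an outlier.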
